A study of Mus musculus with 12 samples.

Results

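The 4 libraries described here are the untreated cultures, called Media, of a study with 12 libraries of mouse microglia. They were chosen by their label alone, as the 4 of 12 samples whose treatment is Media, and no expression value was used to choose them. The cells came from the forebrains of wild-type pups aged 7 to 9 days. The pups were perfused, the tissue was digested with papain for 45 min at 37 °C, and cells that bound CD11b beads were kept on a magnetic column. Between 40000 and 80000 cells were plated per well in microglia growth medium and left for 10 min. Extra medium was then added, equal in volume to the treatments, and the cells were lysed after 6 h. The other 8 libraries share the genotype, isolation, plating and time, and received 500 nM Hevin (4 libraries) or 50 ng/mL lipopolysaccharide (4 libraries). Cells that were not cultured are not analysed here, so the state described here holds dissociation, bead binding, plating and 6 h of culture together, and these cannot be told apart. The labels do not say how many pups went into a library or whether pups were pooled, so the spread between the 4 libraries may be partly technical. The study as a whole concerned signalling between astrocytes and microglia. The description below covers the level of each gene, its rank, and its spread over the 4 libraries, and compares no treatments.

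Microglia are the resident macrophages of the brain. They depend on signalling through the receptor Csf1r, clear synapses, debris and dying cells, and in the healthy brain carry a set of so-called homeostatic genes, among them Tmem119, P2ry12 and Sall1. Microglia taken out of the brain are known to lose part of this set in culture. CD11b, the product of Itgam, is also found on other myeloid cells such as monocytes and neutrophils, so bead selection does not by itself separate these from microglia.

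Expression was deposited as FPKM (fragments per kilobase of gene, scaled to library size), which is divided by gene length. Levels and ranks between genes still depend on how reads were aligned and counted, which was not tested. Whole reads were recovered from the steps in these values, and the 4 libraries held 25910349, 18343996, 24546431 and 25566720 reads in the 14541 listed genes. Every pair of libraries differed by more than counting noise: the mean chi-square of read counts per gene was 25.4 to 98.2, where counting alone gives 1, so no pair of libraries agreed within counting noise. Across the 7391 genes with a mean of at least 5 FPKM, Pearson's r of log2(FPKM + 1) between pairs was 0.940 (Media 2 and 3) to 0.987 (Media 3 and 4), a description across genes that are not independent replicates. Media 2 was apart from the other 3 in several sets of genes given below: those of neutrophils, heat shock and immediate early genes were highest there in sum, and interferon-stimulated genes lowest. Media 1 held the least of several other cell types' genes. Results that rest on these libraries are given library by library. Values in sentences are FPKM in Media 1, 2, 3 and 4 in that order, or mean ± SD (n = 4), unless another unit is named.

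The cells carried a strong myeloid signature, and 3 microglial markers were present in each library at very different levels. Csf1r, the receptor for colony-stimulating factor 1, had 278, 224, 209.7 and 242 FPKM in the 4 libraries, a mean of 239 ± 29.5 (SD, n = 4) and rank 161 among the 14541 genes. C1qa, a chain of the complement component C1q (ENSMUSG00000036887.5, chr4:136895917-136898803, minus strand, GRCm38), had 158, 153, 166 and 172 FPKM and rank 263. Cx3cr1, the receptor for the neuronal chemokine fractalkine (ENSMUSG00000052336.7, chr9:119901616-120069879, minus strand), had 15.8, 13.4, 13.8 and 13.9 FPKM and rank 4340. The coefficient of variation (CV, the SD as a percent of the mean) of the 3 markers was 12.4%, 5.30% and 7.50%. The median CV over genes with a mean of at least 5 FPKM was 11.8%.

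Of 24 genes of myeloid identity, all 24 were listed and 17 had a mean of at least 100 FPKM, a level reached by 3.31% of all listed genes (482 of 14541). The median of the list was 243 FPKM (225 FPKM without Media 1), against 5.24 FPKM over all listed genes. Cd14, the co-receptor that hands lipopolysaccharide to Tlr4, led the list at 2267 ± 86.6 FPKM and was the seventh highest gene of the whole table, with 2355, 2148, 2274 and 2289.9 FPKM. Tyrobp (549.7 ± 28.7 FPKM) and Fcer1g (478 ± 28.2 FPKM), adaptor chains of activating receptors, and the lysosomal protein Cd68 (624 ± 127 FPKM) followed. The other 2 C1q chains, C1qb and C1qc, were at 361 ± 30.8 and 249.7 ± 22.8 FPKM, and the lineage factor Spi1 (PU.1) was at 247 ± 19.5 FPKM. The lowest of the 24 were Cx3cr1 and Aif1, which encodes the microglial stain Iba1, at 10.9 ± 1.98 FPKM. Itgam, whose product the beads bind, was at 51.2 ± 6.71 FPKM (rank 1213). The summed level of the 24 genes was 8125, 8028, 7549.7 and 8034 FPKM, so the libraries differed little in it: their spread was 3.28% of the mean.

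**Figure D1:**
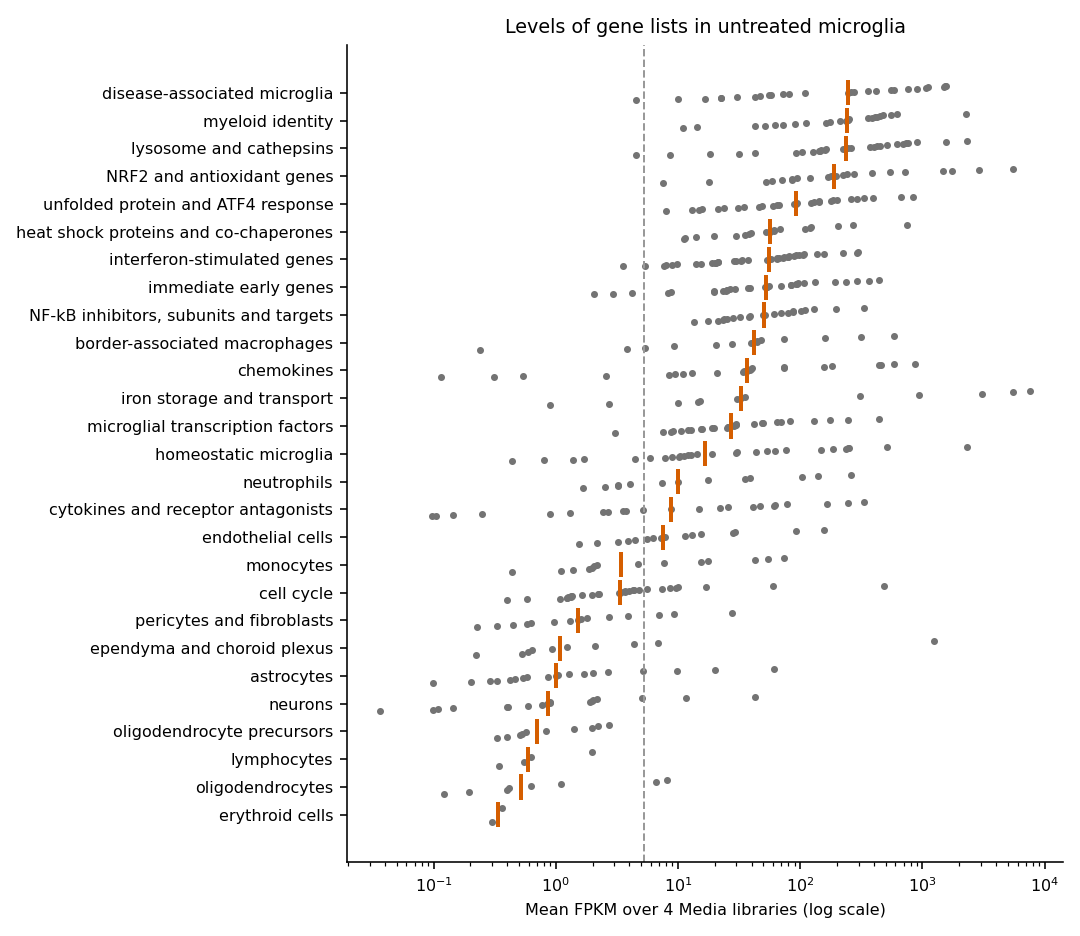
Mean FPKM over the 4 Media libraries (log axis) of each listed member (grey points) of 27 gene lists, with the list's median as an orange bar. The dashed line is the median of all 14541 listed genes, 5.24 FPKM. Disease-associated, myeloid identity and lysosomal genes had medians of 246, 243 and 235 FPKM. Without Media 1 the first 2 of these fell to 193 and 225 FPKM. Astrocyte, neuronal and oligodendrocyte genes had medians of 0.520 to 1.00 FPKM.

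The upper end of the transcriptome was led by iron storage, oxidative stress, actin and lysosomal genes. Of the 14541 listed genes, 10795 (74.2%) had a mean of at least 1 FPKM, 5471 (37.6%) at least 10 FPKM, 482 at least 100 FPKM and 22 at least 1000 FPKM. The 10 highest genes together held 9.90% of the summed FPKM and the 100 highest held 27.0% ± 0.338. The highest gene was Ftl1, the ferritin light chain (ENSMUSG00000050708.16, chr7:45457944-45459884, minus strand), with 7538, 7455, 7513 and 7943 FPKM. The second was Hmox1, heme oxygenase 1, which breaks down heme and releases its iron (ENSMUSG00000005413.8, chr8:75093621-75100589, plus strand), with 5777, 6346, 5114 and 4594 FPKM. Actb (3156 ± 366 FPKM), Fth1, the ferritin heavy chain (3049.8 ± 160.4 FPKM), and Sqstm1, the autophagy receptor p62 (2878 ± 404 FPKM), came next. Ctsd, Cd14, B2m, Actg1 and Prdx1 filled ranks 6 to 10. By reads in place of FPKM, which does not divide by length, Hmox1 led with 193806 to 240997 reads per library, followed by Ftl1, Ctsb, Actb and Sqstm1. Ranks below these shift with gene length: Tmsb4x, the short thymosin beta 4 gene, was 16th by FPKM and 86th by reads.

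Some values at the top need care. Mir682, listed at 1380.2 ± 133 FPKM (rank 17), is a 96-base gene at chr13:75645046-75645141 (GRCm38) that lies inside Gm4149, a processed pseudogene in the GENCODE M21 annotation. It rested on 2608 to 3994 reads per library, which placed it at rank 1680 by reads. Lilrb4a (1516 ± 134 FPKM) and Lilr4b (998 ± 56.0 FPKM), paired inhibitory receptors of myeloid cells, are close copies, and so are Hspa1a and Hspa1b, the Stfa genes, the Bcl2a1 genes and the pair Ifit3 and Ifit3b. How reads shared between copies were counted is not given in the sources used here, so levels within such groups are uncertain. Ftl1, Gapdh and the ribosomal protein genes also have many processed copies in the genome.

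**Figure D2:**
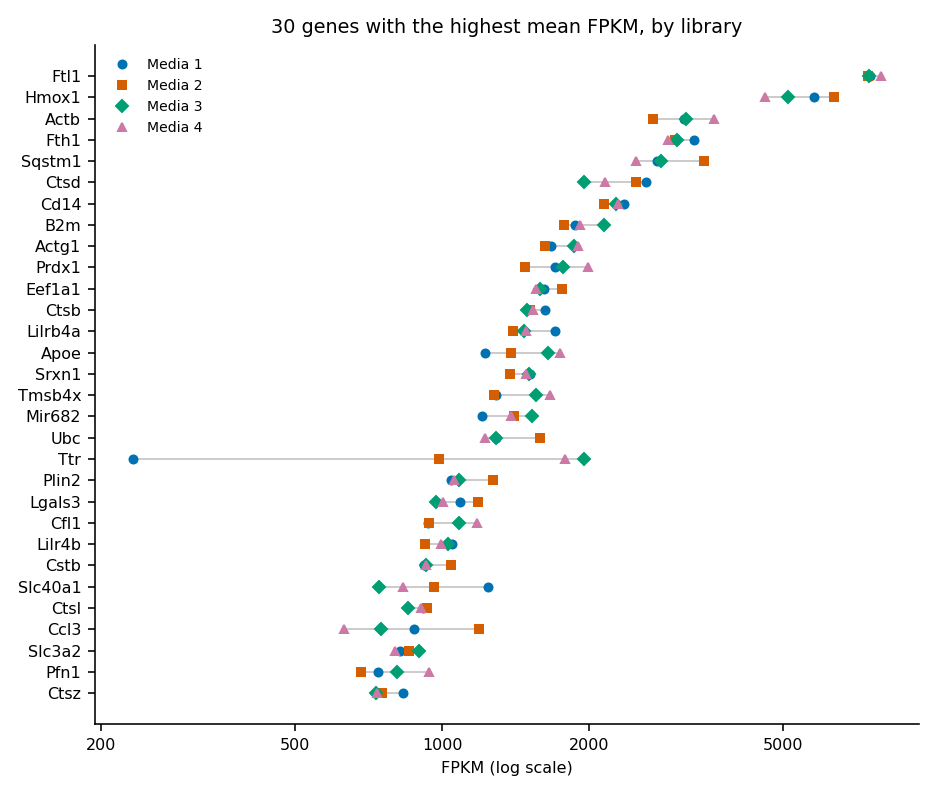
FPKM (log axis) in each of the 4 Media libraries for the 30 genes with the highest mean. Most lie within a narrow band; Ttr, a choroid plexus gene, runs from 233 in Media 1 to 1955 in Media 3.

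Antioxidant genes were high as a group, and a few iron genes were very high. NRF2 (the product of Nfe2l2) is a transcription factor that is released from Keap1 under oxidative stress and binds antioxidant response elements in front of its targets. Of 22 NRF2 and antioxidant genes, all were listed, 14 had at least 100 FPKM and the median was 188 FPKM. Together they held 4.64% of the summed FPKM. The 13 listed genes of iron storage and transport held 5.39%, with Hmox1 in both lists, but their median was 33.0 FPKM: 5 had at least 100 FPKM (Ftl1, Hmox1, Fth1, Slc40a1 and Slc11a1) and 1 was below 1 FPKM. Prdx1, a peroxiredoxin that removes hydrogen peroxide, had 1702, 1482, 1773 and 1988 FPKM. Srxn1, sulfiredoxin, which restores oxidised peroxiredoxins, had 1513, 1376, 1506 and 1489 FPKM. Txnrd1, thioredoxin reductase (722 ± 51.7 FPKM), the glutathione synthesis genes Gclm (539.9 ± 41.4 FPKM) and Gclc (387 ± 73.2 FPKM), and the cystine importer Slc7a11 (224 ± 32.1 FPKM) were all above 100 FPKM. Nfe2l2 itself was at 242 ± 25.6 FPKM and its inhibitor Keap1 at 18.0 ± 1.41 FPKM. At the low end of the list stood Gpx4, which protects membranes from lipid peroxides, at 7.59 ± 0.632 FPKM. None of the 22 genes had a CV of 30% or more. Background for that count is 7.87%: 582 of the 7391 genes with a mean of at least 5 FPKM reached it.

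Among the iron genes, Slc40a1 (ferroportin, the iron exporter) was at 944 ± 218 FPKM and Slc11a1, which moves metal ions out of the phagosome, at 307 ± 38.2 FPKM. Tfrc, the transferrin receptor that imports iron, was at 9.94 ± 3.57 FPKM, and the iron regulatory gene Ireb2 at 30.1 ± 1.99 FPKM. In the same scale, the exporter was therefore far above the importer in each library, with 1242, 963, 741 and 831 FPKM against 7.16, 15.2, 9.11 and 8.33 FPKM. Hamp, which encodes hepcidin, was not among the listed genes.

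Antioxidant response elements were looked for in the 250 bases before the RefSeq start of each gene, as the letters TGACNNNGC on either strand. They were found in 6 of the 17 NRF2 and antioxidant genes that matched the RefSeq table (35.3%) and in 14.0% of 10912 listed genes that matched. Hmox1 and Srxn1, also among the highest antioxidant genes, were not among the 6. The stretches around the match are shown for 3 of the 6 genes, since they are among the highest antioxidant genes of these cells. They are in GRCm38.p6 and read 5′ to 3′ on the strand of the gene, with the match in capitals. All 3 matches are on the opposite strand, so the capitals show the reverse complement of the motif.
Gclm, chr3:122245398-122245456, plus strand: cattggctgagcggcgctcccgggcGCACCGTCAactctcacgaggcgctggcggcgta
Txnrd1, chr10:82859089-82859147, plus strand: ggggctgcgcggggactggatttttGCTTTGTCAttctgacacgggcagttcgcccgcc
Prdx1, chr4:116685441-116685499, plus strand: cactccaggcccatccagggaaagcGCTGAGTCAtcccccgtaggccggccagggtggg
The last base of the match lies 126, 84 and 125 bases before the RefSeq start in Gclm, Txnrd1 and Prdx1. A match of letters is a description and does not show that NRF2 binds there in these cells.

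Lysosomal genes were among the highest lists. Of 28 listed genes of lysosomes and cathepsins, 22 had at least 100 FPKM and the median was 235 FPKM. The highest were 4 cathepsin proteases: Ctsd with 2616, 2495, 1957 and 2156 FPKM, then Ctsb (1544 ± 55.9 FPKM), Ctsl (900.5 ± 33.2 FPKM) and Ctsz (763 ± 46.0 FPKM). Lamp1, a membrane protein of lysosomes (729.8 ± 25.3 FPKM), Psap, which helps to break down sphingolipids (687 ± 107 FPKM), and Lipa, the acid lipase (514 ± 91.9 FPKM), followed. The bone-resorption protease Ctsk was lowest at 4.53 ± 1.40 FPKM. Of the 28 genes, 19 had their lowest value in Media 3 (background 27.7% of the 10795 genes with a mean of at least 1 FPKM), and the summed level was 12735, 12265, 10452 and 11085 FPKM.

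Genes that microglia are known to raise around lesions and in the developing white matter were at similar levels. Of 27 disease-associated and proliferative-region genes, all were listed, 15 had at least 100 FPKM and the median was 246 FPKM, or 193 FPKM without Media 1. Apoe, the lipid carrier, had 1226, 1384, 1646 and 1745 FPKM. Plin2, which coats lipid droplets (1114 ± 106 FPKM), Lgals3, a galectin of phagocytic cells (1063 ± 95.7 FPKM), Lpl, lipoprotein lipase (584 ± 150.0 FPKM), and Spp1, osteopontin (419 ± 28.4 FPKM), were all high. Csf1, a ligand of Csf1r, varied more, with 404, 290.3, 122 and 167 FPKM. Other members of the same set were far lower: Trem2, the lipid receptor of this state, at 71.9 ± 10.4 FPKM, Clec7a at 80.3 ± 5.73 FPKM, Axl at 22.4 ± 3.56 FPKM, Itgax at 16.6 ± 2.27 FPKM and the cathepsin inhibitor Cst7 at 4.50 ± 2.59 FPKM. Cst7 had 6.59, 6.80, 2.91 and 1.69 FPKM, so Media 1 and 2 were above Media 3 and 4. The list shares Ctsb, Ctsl, Ctsz and Cd63 with the lysosomal list and Tyrobp and Trem2 with the identity list.

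Homeostatic genes spread over more than 3 orders of magnitude. All 28 were listed, with a median of 16.6 FPKM, and 7 had at least 100 FPKM. Among those 7 were Ctsd, Cst3, Rhob, Csf1r, Sparc and Fcrls, and several of them are not restricted to the homeostatic state. Cst3, cystatin C, was at 512 ± 37.4 FPKM and Fcrls at 149 ± 12.4 FPKM. The receptors and surface proteins that mark resting microglia were much lower. P2ry12, the ADP receptor that steers microglial processes (ENSMUSG00000036353.13, chr3:59216272-59262871, minus strand), had 11.0, 16.6, 6.40 and 7.59 FPKM and rank 5353. Tmem119, a surface protein used as a microglial marker (ENSMUSG00000054675.5, chr5:113793729-113800516, minus strand), had 1.22, 1.71, 1.19 and 1.45 FPKM and rank 10213. P2ry13 was at 1.72 ± 0.887 FPKM, Gpr34 at 4.44 ± 1.19 FPKM, Siglech at 30.4 ± 8.20 FPKM and Slc2a5, a fructose transporter, at 0.436 ± 0.188 FPKM. P2ry12, P2ry13, Slc2a5 and Siglech were highest in Media 2 and lowest in Media 3. Over the 26 homeostatic genes with a mean of at least 1 FPKM, 15 were highest in Media 2, 10 in Media 1, 0 in Media 3 and 1 in Media 4. Background shares for these counts, over the 10795 genes with a mean of at least 1 FPKM, are 26.5% for Media 2, 33.5% for Media 1, 19.7% for Media 3 and 20.3% for Media 4. Of the same 26 genes, 19 were lowest in Media 3 (background 27.7%). All 28 summed to 4837, 4623, 3699 and 4074 FPKM.

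**Figure D3:**
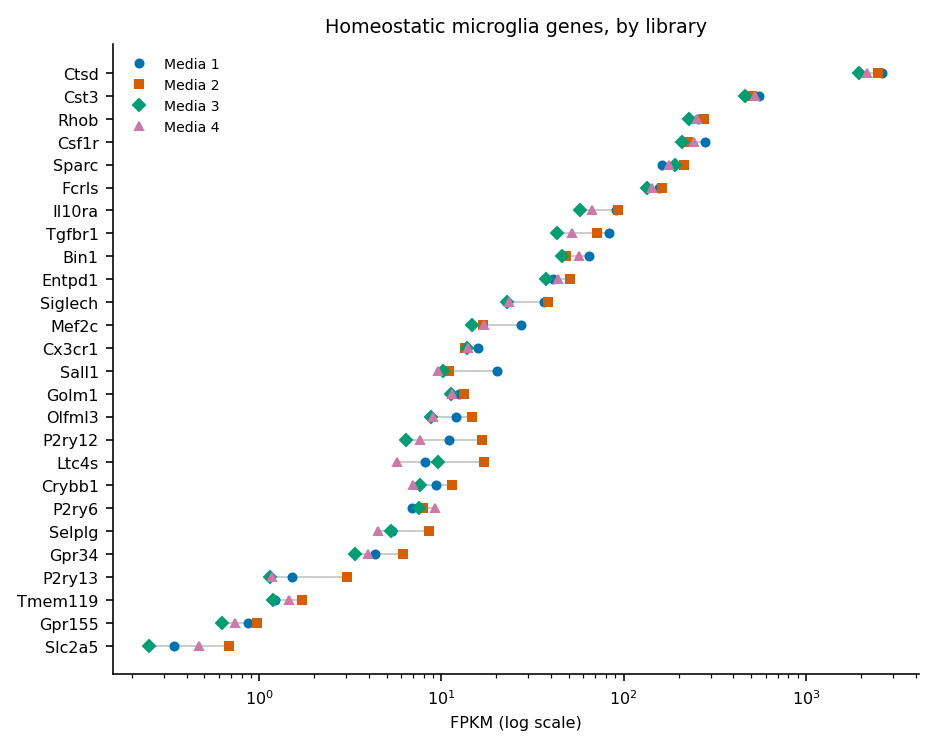
FPKM (log axis) in each Media library for 26 of the 28 homeostatic microglia genes, ordered by mean. Tmem119, Gpr155 and Slc2a5 lie at or below 1.71 FPKM in each library, while Ctsd, Cst3, Rhob and Csf1r are the highest, with Csf1r at 239 FPKM on average.

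The transcription factors of the lineage were all listed (29 of 29), with a median of 27.2 FPKM and 4 at or above 100 FPKM: Klf6, Spi1, Ets2 and Irf5. Sall1, the factor that marks microglia among brain macrophages (ENSMUSG00000031665.7, chr8:89027235-89044162, minus strand), had 20.3, 11.0, 10.2 and 9.56 FPKM, with Media 1 above the other 3. Mef2c, a factor linked to the resting state, had 27.4, 16.9, 14.7 and 17.2 FPKM. Irf8 was at 25.8 ± 3.16 FPKM, Runx1 at 25.7 ± 2.93 FPKM, and the TGF-beta mediators Smad4, Smad2 and Smad3 were at 41.6, 12.1 and 8.79 FPKM. The TGF-beta receptor Tgfbr1 was at 62.1 ± 18.0 FPKM and its ligand Tgfb1 at 77.6 ± 3.70 FPKM.

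Several inflammatory genes had high levels without any added stimulus. Of 24 listed chemokines, 6 had at least 100 FPKM, and the median was 37.0 FPKM. Ccl3 (MIP-1 alpha, ENSMUSG00000000982.5, chr11:83647844-83649355, minus strand), which attracts monocytes and other leukocytes, had 876, 1192, 750.2 and 629.9 FPKM and rank 27. Ccl4, a related chemokine, had 534, 437, 458 and 413 FPKM. Cxcl2, which attracts neutrophils through Cxcr2, had 287, 541, 547 and 377 FPKM, and its relative Cxcl3 was at 183 ± 20.7 FPKM. Cxcl1, another Cxcr2 ligand, had 10.6, 18.3, 80.3 and 51.5 FPKM, so Media 3 and 4 were above Media 1 and 2. Ccl5 was highest in Media 3, with 23.3, 14.0, 76.2 and 26.3 FPKM. The interferon-gamma chemokines Cxcl9 and Cxcl11 were at 0.313 and 0.115 FPKM, and Cxcl9 was listed at 0 in Media 2. Pf4, known from platelets and from macrophages at the brain's borders, was at 583 ± 50.1 FPKM.

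Cytokines themselves were mostly lower. Of 23 listed cytokines and antagonists, 3 had at least 100 FPKM, 18 at least 1 FPKM, and the median was 8.75 FPKM. It was 5.98 FPKM without Media 3. Il1rn, the antagonist of the interleukin 1 receptor, had 204, 282, 482 and 366 FPKM, above Il1b at 188, 183, 154 and 132 FPKM in each library and Il1a at 40.7 ± 12.2 FPKM. Tnf was at 61.7 ± 9.11 FPKM and Osm at 60.5 ± 13.3 FPKM. Il6 had 4.38, 6.98, 17.1 and 6.58 FPKM and Csf3, the neutrophil growth factor, 7.15, 15.4, 56.3 and 24.3 FPKM, both highest in Media 3. Il10 was at 3.76 ± 0.362 FPKM, Ifnb1 at 0.890 ± 0.350 FPKM, Il12b at 0.0974 FPKM and Csf2 at 0.104 FPKM, while Il12a and Ifng were not among the listed genes.

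The letters GGNNTTTCC, a core of the site that NF-kB proteins bind (kappa B site), were found on either strand in 7 of 16 matched chemokine genes (43.8%) and in 6.40% of the listed genes matched. The 7 genes were Ccl9, Ccrl2, Cxcl1, Cxcl2, Cxcl3, Cxcl9 and Cxcl10. The stretches of Cxcl2 and Cxcl1, neighbours on chromosome 5 that differ in level, are shown. Any part of the matches in that difference was not tested. Capitals mark each match.
Cxcl2, chr5:90903797-90903855, plus strand: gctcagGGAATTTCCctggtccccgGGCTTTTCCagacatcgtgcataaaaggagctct
Cxcl1, chr5:90891150-90891208, plus strand: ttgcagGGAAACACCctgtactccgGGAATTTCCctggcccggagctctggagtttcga
The nearest match ends 69 bases before the start in Cxcl2 and 62 bases before it in Cxcl1. Cxcl1 also holds a match on the opposite strand.

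All 22 genes of NF-kB subunits, inhibitors and targets were listed with at least 10 FPKM, a median of 50.4 FPKM and 5 at or above 100 FPKM. Ptgs2, cyclooxygenase 2, led them with 332, 402, 319 and 286 FPKM, followed by the activation marker Cd83 (195 ± 44.0 FPKM), the urokinase receptor Plaur (129 ± 38.6 FPKM) and the inhibitor Nfkbia (109 ± 14.6 FPKM). The subunits Nfkb1 (102 ± 10.5 FPKM), Rela (69.7 ± 2.49 FPKM), Nfkb2 (61.2 ± 8.01 FPKM), Relb (38.2 ± 4.59 FPKM) and Rel (31.9 ± 3.29 FPKM) were present in each library. Summed FPKM of the list was 1677, 1590.0, 1624 and 1579, a spread of 2.71% of the mean. Of the 22, 1 had a CV of at least 30%.

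Immediate early genes, which cells switch on within minutes of a stimulus, were present after 6 h. All 32 were listed, 7 had at least 100 FPKM and the median was 52.5 FPKM. Klf6 (438 ± 79.1 FPKM), the mRNA decay factor Zfp36 (364 ± 33.2 FPKM), Atf3 (293 ± 57.3 FPKM), Ier3 (236 ± 34.3 FPKM) and the phosphatase Dusp1 (194 ± 35.7 FPKM) led. Jun was at 83.3 ± 20.4 FPKM, Fos at 53.5 ± 6.36 FPKM and Egr1 at 39.0 ± 16.2 FPKM, with Egr1 at 36.0, 62.7, 29.1 and 28.2 FPKM. Fosb (2.94 ± 1.10 FPKM) and Egr3 (2.06 ± 0.925 FPKM) were lowest. Of the 32, 17 were highest in Media 2 (background 26.5%), and the summed level was 2691, 3188, 2638 and 2664 FPKM, highest in Media 2.

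The receptors for microbial ligands were in place. Of 25 Toll-like receptors and adaptors, all were listed with at least 1 FPKM, and 2 had at least 100 FPKM: Cd14 and Tlr7, which senses RNA in endosomes (104 ± 34.4 FPKM). Tlr4, the lipopolysaccharide receptor, had 70.0, 58.0, 63.4 and 73.8 FPKM and its partner Ly96 (MD-2) was at 18.5 ± 5.08 FPKM. Tlr2, a receptor for bacterial lipopeptides, had 122, 55.6, 54.1 and 58.8 FPKM, with Media 1 at least 2-fold above the other 3. The adaptor Myd88 was at 59.5 ± 6.74 FPKM and the inflammasome sensor Nlrp3 at 78.0 ± 13.3 FPKM. Tlr3 and Tlr5 were the lowest receptors, at 3.21 ± 1.58 and 2.43 ± 0.366 FPKM.

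Antigen presentation was led by class I genes. B2m had 1928 ± 156 FPKM, H2-D1 241 ± 29.1 FPKM and H2-K1 204 ± 25.3 FPKM. The class II genes H2-Aa, H2-Ab1 and H2-Eb1 were at 12.5, 6.66 and 6.12 FPKM, the invariant chain Cd74 at 95.1 ± 22.4 FPKM, and Ciita, which switches on class II genes, at 0.0788 FPKM. The co-stimulatory ligands Cd86 and Cd80 were at 145 ± 19.1 and 115 ± 25.3 FPKM, and Cd40 at 3.11 ± 1.90 FPKM. Of 17 listed genes of alternative activation and repair, Thbs1 (433 ± 31.3 FPKM), Retnla (279 ± 61.8 FPKM) and the mannose receptor Mrc1 (161 ± 16.8 FPKM) had at least 100 FPKM, and Arg1 was lowest at 0.658 ± 0.251 FPKM.

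Interferon-stimulated genes differed more between the 4 libraries than most lists. Type I interferons switch these genes on through factors that bind interferon-stimulated response elements. All 38 genes were listed, with a median of 55.8 FPKM and 7 at or above 100 FPKM. Rsad2 (viperin, an antiviral enzyme, ENSMUSG00000020641.16, chr12:26442746-26456452, minus strand) had 276, 119.7, 526 and 269 FPKM. Isg15, a ubiquitin-like modifier (ENSMUSG00000035692.6, chr4:156199424-156200818, minus strand), had 239, 95.8, 542 and 285 FPKM. Ifitm3, which hinders virus entry, had 183, 71.6, 384 and 255 FPKM, and Irf7, a factor that amplifies the response, 80.5, 22.3, 139 and 83.9 FPKM. In these 4 genes Media 3 was highest and Media 2 lowest, with Media 1 and 4 between. The same order of extremes held for most of the list: 37 of 38 genes were highest in Media 3 (background 19.7%) and all 38 were lowest in Media 2 (background 29.7%). The exception was Irf1, highest in Media 1. Summed FPKM of the 38 genes was 2577, 995, 4261 and 2681. Of the 37 with a mean of at least 5 FPKM, 36 had a CV of at least 30%, against 7.87% of all such genes, and the other was Irf1 at 17.6, 11.6, 16.3 and 15.8 FPKM. The transcription factor Stat2 had 65.9, 24.1, 79.5 and 61.9 FPKM and Irf9 62.7, 27.6, 68.3 and 56.0 FPKM. Ifnb1 did not follow this order, with 0.638, 1.27, 1.10 and 0.552 FPKM. Tap1, Psmb8 and Tapbp, genes of class I presentation that interferons also raise, had their lowest value in Media 2. Tap1 had 22.2, 8.27, 28.2 and 22.4 FPKM, Psmb8 33.7, 13.7, 39.3 and 32.5 FPKM and Tapbp 79.9, 34.8, 101 and 84.6 FPKM. Of 20 genes of antigen presentation and co-stimulation with at least 1 FPKM, 11 were lowest in Media 2 (background 29.7%). The others were lowest in Media 1 (3), Media 3 (4) and Media 4 (2).

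The letters GAAANNGAA, a core of the interferon-stimulated response element, were found on either strand in 15 of 29 matched interferon-stimulated genes (51.7%) and in 7.76% of the 10912 listed genes matched. The stretches are shown for 3 of the 15 genes. Irf7 and Ifitm3, which had the same highest and lowest libraries, were not among the 15. Any part of the element in the order of the libraries was not tested. Capitals mark the matches.
Rsad2, chr12:26456538-26456596, minus strand: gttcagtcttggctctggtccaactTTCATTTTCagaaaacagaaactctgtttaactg
Isg15, chr4:156200851-156200909, minus strand: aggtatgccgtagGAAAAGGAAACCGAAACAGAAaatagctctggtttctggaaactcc
Ifit1, chr19:34640780-34640838, plus strand: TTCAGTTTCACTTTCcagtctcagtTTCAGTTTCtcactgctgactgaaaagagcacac
Matches overlap in Isg15, so that its capitals run over a longer stretch, and the stretch of Ifit1 holds 2 overlapping matches and 1 apart from them, on the opposite strand. Ifit1 had 84.0, 27.3, 132 and 77.3 FPKM.

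Heat shock genes showed another pattern, with Media 2 apart. All 19 heat shock proteins and co-chaperones were listed, with a median of 57.0 FPKM (40.5 FPKM without Media 2) and 6 at or above 100 FPKM. The constitutive chaperones Hsp90ab1 (746 ± 72.4 FPKM) and Hspa8 (269 ± 23.8 FPKM) were highest and varied little. The inducible Hsp70 gene Hspa1a (ENSMUSG00000091971.3, chr17:34969190-34972156, minus strand) had 19.3, 402, 23.9 and 34.1 FPKM and its near-identical copy Hspa1b 18.5, 356, 24.6 and 42.3 FPKM, so both were high in 1 library and much lower in the other 3. Hsph1, an Hsp70 partner, had 44.7, 107, 50.7 and 43.3 FPKM, Hsp90aa1 168, 278, 195 and 166 FPKM and the co-chaperone Bag3 47.7, 72.6, 46.8 and 43.3 FPKM, again highest in Media 2. Dnaja1, at 15.3, 13.3, 13.8 and 13.4 FPKM, and Stip1, at 56.2, 57.1, 60.9 and 53.7 FPKM, were not. Of the 19 genes, 13 were highest in Media 2 (background 26.5%), and the summed level was 1828, 2885, 1872 and 1686 FPKM.

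The heat shock element core GAANNTTC was found on either strand in the 250 bases before the start in 6 of 15 matched members (40.0%) and in 6.16% of listed genes matched. The stretches of the Hsp70 pair are shown to let the copies be compared.
Hspa1a, chr17:34972228-34972285, minus strand: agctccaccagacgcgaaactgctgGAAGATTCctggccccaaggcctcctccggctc
Hspa1b, chr17:34959310-34959367, minus strand: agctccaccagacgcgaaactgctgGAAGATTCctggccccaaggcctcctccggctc
Both hold the match 97 bases before the start, and the 58 bases shown are identical.

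Genes of the unfolded protein response and of Atf4, which respond to stress in the endoplasmic reticulum and to amino acid shortage, were high. All 29 were listed, 13 had at least 100 FPKM and the median was 93.0 FPKM. Slc3a2, a chain of amino acid transporters (843 ± 42.2 FPKM), Atf4 (669 ± 34.8 FPKM), the chaperone Hspa5 (BiP, 396 ± 94.7 FPKM) and asparagine synthetase, Asns (332 ± 61.8 FPKM), led. Ddit3 (CHOP), which is linked to cell death under this stress, had 115, 157, 132 and 113 FPKM, and Ppp1r15a (GADD34) 105, 212, 138 and 119.7 FPKM. Of the 29, 20 were highest in Media 2 (background 26.5%) and 20 were lowest in Media 1 (background 22.0%). Of 24 p53 and cell death genes, the cell cycle inhibitor Cdkn1a (489 ± 31.0 FPKM), Mcl1 (275 ± 31.2 FPKM) and Bax (219 ± 19.5 FPKM) were highest, while Trp53 was at 27.9 ± 3.58 FPKM and Bcl2 at 1.01 ± 0.194 FPKM. Among 24 listed genes of hypoxia and glycolysis, Pkm (443 ± 64.2 FPKM), Aldoa (347 ± 36.8 FPKM) and the glucose transporter Slc2a1 (158 ± 18.9 FPKM) had at least 100 FPKM, and the hypoxia targets Pdk1 and Egln3 were at 1.58 and 1.56 FPKM.

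Cell cycle genes were low. Of 30 listed, 3 had at least 10 FPKM (Cdkn1a, Pcna and Cdkn1b), and the median was 3.37 FPKM. Mki67, a marker of dividing cells, had 11.1, 12.8, 9.20 and 6.55 FPKM, Top2a 4.24, 6.08, 4.28 and 2.87 FPKM and Cdk1 4.73, 3.00, 4.16 and 3.94 FPKM, so transcripts of dividing cells were present in each library. Of 22 genes of cholesterol synthesis and LXR targets, 12 had at least 10 FPKM and the median was 11.5 FPKM. Apoe and the cholesterol exporter Abca1 (113 ± 10.0 FPKM) were the highest, and the synthesis enzymes Dhcr7 and Lss were at 1.71 ± 0.470 and 1.57 ± 0.253 FPKM.

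Genes often used as references differed widely in level. Of 19, 14 had at least 100 FPKM, with Actb, B2m and Eef1a1 (1632 ± 92.3 FPKM) highest. Gapdh had 45.8, 52.4, 55.2 and 61.2 FPKM and rank 1143, and Tbp 10.3, 10.5, 10.9 and 11.2 FPKM. The 80 listed genes of cytosolic ribosomal proteins had a median of 20.8 FPKM, from 1.77 for Rps27 to 458 for Rpl8, a range of more than 2 orders of magnitude. No mitochondrially encoded gene was among the listed genes. The Y-linked genes Ddx3y (44.4 ± 3.65 FPKM) and Eif2s3y (37.4 ± 2.79 FPKM) were present in each library, so each held RNA from male pups.

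Markers of other cells were checked next, and in bulk RNA fewer cells of a type and less RNA per cell cannot be told apart. Neutrophil genes were high in 1 library. S100a9, a calcium-binding protein stored in neutrophils (ENSMUSG00000056071.12, chr3:90692632-90695721, minus strand), had 26.5, 962, 27.1 and 19.9 FPKM, and its partner S100a8 19.9, 501, 16.4 and 20.8 FPKM. The granule proteins Ngp, Camp and Ltf had 6.18, 399.5, 5.26 and 5.19 FPKM, 4.16, 147, 3.31 and 1.24 FPKM and 1.42, 65.8, 1.15 and 1.73 FPKM. Mpo, the peroxidase of early granules, had 1.13, 11.4, 0.303 and 0.111 FPKM, and Elane 1.77, 11.1, 0.0799 and 0 FPKM. All 13 listed neutrophil genes were highest in Media 2 (background 26.5%), and their summed level was 83.2, 2275, 72.6 and 73.5 FPKM. The median of the list was 9.91 FPKM with all libraries and 2.91 FPKM without Media 2. Csf3r and Mmp9, which other myeloid cells also express, differed less, with 9.34, 9.81, 4.40 and 6.32 FPKM and 6.71, 14.0, 8.59 and 10.3 FPKM. Of the 13 monocyte genes with a mean of at least 1 FPKM, 8 were highest in Media 2 (background 26.5%). Another 3 were highest in Media 3 (background 19.7%) and 2 in Media 4 (background 20.3%). All 14 listed summed to 176, 275, 231 and 231 FPKM. Chil3, 1 of the 14, had 68.4 FPKM in Media 2 and a median of 1.03 FPKM over the 4 libraries. The higher sum of Media 2 rests on this gene. Ly6c2 (1.51, 15.8, 0.734 and 0.575 FPKM) and Plac8 (0.760, 6.82, 0.317 and 0.356 FPKM) were among the 8. Ccr2, the receptor of blood monocytes, was below 1 FPKM in each library, with 0.421, 0.820, 0.256 and 0.266 FPKM, and was also highest in Media 2. Media 2 was thus highest in neutrophil, heat shock and immediate early genes in sum and lowest in interferon-stimulated genes. The part of the neutrophil transcripts in the other differences was not tested.

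Macrophages of the brain's borders share much with microglia. Of 14 border-associated genes, all were listed, with a median of 41.7 FPKM. Pf4, Clec4n (315 ± 56.3 FPKM) and Mrc1 had at least 100 FPKM. Lyve1, which is on perivascular macrophages, had 27.5, 38.6, 43.3 and 48.0 FPKM, Folr2 43.1, 31.9, 57.3 and 57.9 FPKM, Cd163 8.82, 11.7, 8.11 and 8.83 FPKM and Siglec1 5.60, 2.59, 6.95 and 6.44 FPKM. All 4 were present in each library, and Cd209a, at 0.241 ± 0.128 FPKM, was the lowest of the list.

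Vascular and choroid plexus genes were present in unequal amounts. Ttr, transthyretin, which the choroid plexus makes in large amounts, had 233, 986, 1955 and 1789 FPKM and was the 19th highest gene of the table. Other choroid plexus genes were far lower but had the same lowest library, with Folr1 at 1.69, 4.36, 10.2 and 11.0 FPKM and Clic6 at 0.939, 2.94, 6.51 and 7.07 FPKM. The endothelial tight junction gene Cldn5 had 8.14, 22.2, 50.3 and 35.4 FPKM, Cdh5 (VE-cadherin) 7.19, 24.0, 48.0 and 32.8 FPKM and Pecam1 5.80, 10.0, 20.6 and 15.4 FPKM. Of the 16 endothelial genes, all listed, 15 were lowest in Media 1 (background 22.0%) and 10 were highest in Media 3 (background 19.7%). The growth factor Igf2, in the list of pericytes and fibroblasts, had 6.88, 24.1, 44.4 and 36.2 FPKM, and that list summed to 21.7, 53.9, 90.0 and 75.1 FPKM.

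Most genes of neural cells were low. Of 19 listed astrocyte genes, the median was 1.00 FPKM and 2 had at least 10 FPKM, Gja1 (49.6, 47.6, 74.6 and 70.7 FPKM) and Clu (3.91, 14.6, 31.0 and 30.7 FPKM). Gfap had 0.761, 0.773, 1.36 and 1.11 FPKM, Aqp4 0.324, 0.0607, 0.692 and 0.619 FPKM and Aldh1l1 was at 0.203 ± 0.173 FPKM. All 10 astrocyte genes with a mean of at least 1 FPKM were highest in Media 3 (background 19.7%), and the list summed to 62.7, 79.6, 161 and 133 FPKM. The matricellular gene Sparcl1, which encodes Hevin, the protein tested in the study, had 2.52, 10.2, 15.8 and 11.0 FPKM in these untreated cells. It is a gene of astrocytes and vessels and belongs to the astrocyte list. Sparcl1 was lowest in Media 1 and highest in Media 3. The same held for the sums of the astrocyte, endothelial, neuronal and choroid plexus lists, so this order singles out no source. Neuronal genes had a median of 0.871 FPKM over 18 listed, and 2 had at least 10 FPKM: the tubulin gene Tubb2b (42.5 ± 5.30 FPKM) and Stmn1 (10.3, 12.9, 11.5 and 11.9 FPKM), a regulator of microtubules. Map2 was at 0.445, 1.31, 4.11 and 1.98 FPKM, Snap25 at 0.770 ± 0.558 FPKM and Rbfox3 (NeuN) at 0.0989 FPKM. The 8 listed oligodendrocyte genes had a median of 0.520 FPKM, with Mbp highest at 10.5, 8.28, 6.66 and 7.20 FPKM. Of 18 lymphocyte genes only 4 were listed, with Cd79b highest at 1.98 ± 0.893 FPKM. Of 10 erythroid genes 2 were listed, both below 1 FPKM, and no globin gene of the list was among the listed genes. The part of these cells' transcripts in the spread of the myeloid genes was not tested.

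**Figure D4:**
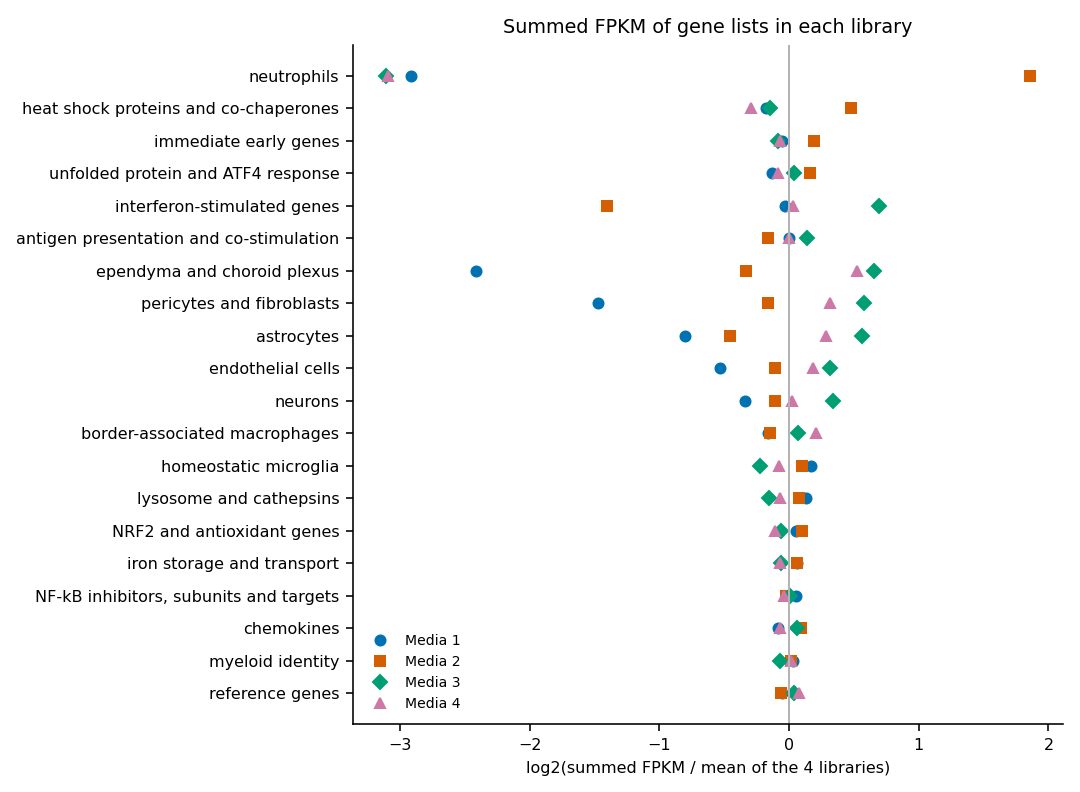
Summed FPKM of 20 gene lists in each Media library, as log2 of the ratio to the mean of the 4 libraries. Media 2 lies far to the right for neutrophil genes (2275 FPKM, against 72.6 to 83.2 in the others) and to the left for interferon-stimulated genes, Media 1 lies to the left for choroid plexus and vascular genes, and the lists of myeloid identity, chemokines and reference genes lie close to 0.

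Spread between the 4 libraries was small for most genes. Over the 7391 genes with a mean of at least 5 FPKM the median CV was 11.8%, with quartiles of 7.82% and 17.8% and a 95th percentile of 37.9%. Counting alone, from the recovered reads, gives a median CV of 2.79%, so most of the spread was not sampling of reads. A CV of at least 30% was found in 582 of these genes (7.87%), and in 464 when Media 2 was left out. The 20 largest CVs were led by Chil3 (190.1%, 1.42, 68.4, 0.645 and 0.575 FPKM), a chitinase-like protein, Ngp, Camp and Ltf. They also held Stfa1, Stfa2, Stfa3 and Stfa2l1, the stefin A genes, as well as Lcn2, Anxa1 and the Hsp70 pair. Among all 582 genes with a CV of at least 30%, Media 2 was highest in 26.5% and Media 3 in 41.9%. Over all 7391 genes these shares were 27.2% and 15.6%, so Media 2 was near its share and Media 3 above it. In 19 of the 20 with the largest CVs, Media 2 was highest (background 27.2%). The exception was Pydc3, highest in Media 3, with 2.29, 0.346, 19.3 and 10.6 FPKM. Arc, an immediate early gene, had 2.61, 18.5, 3.63 and 4.09 FPKM.

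Counted over all these genes, Media 2 was at least 2-fold above each of the other 3 libraries in 33 genes and at least 2-fold below in 108. Media 1 was that far above in 9 and below in 77, Media 3 in 8 and 4, and Media 4 in 0 and 4. Genes of small RNAs (Snora, Snord and Mir symbols) were all but Usp35 and Tlr2 of those high in Media 1. They were also all of those low in Media 3 and all but Camp of those low in Media 4. Krt18 and Cldn1, both epithelial genes, Emcn and Ttr were among the genes low in Media 1. Ccl5, Gbp2, Il6 and Csf3 were among the 8 that were high in Media 3. Of genes with at least 20 FPKM, the steadiest were Csl, a citrate synthase-like gene (CV 0.686%, 49.6, 49.6, 49.0 and 49.1 FPKM), Ywhab (0.816%) and Srrt (0.902%), whose CVs were below those that counting alone gives (2.05%, 1.06% and 1.55%). Such values are found in 207 genes (2.80%). Among the highest genes, Ftl1 (CV 2.94%), Lamp1 (3.46%), Ctsb (3.62%), Ctsl (3.69%) and Cd14 (3.82%) were also steady, and Actb varied more, at 11.6%.

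**Figure D5:**
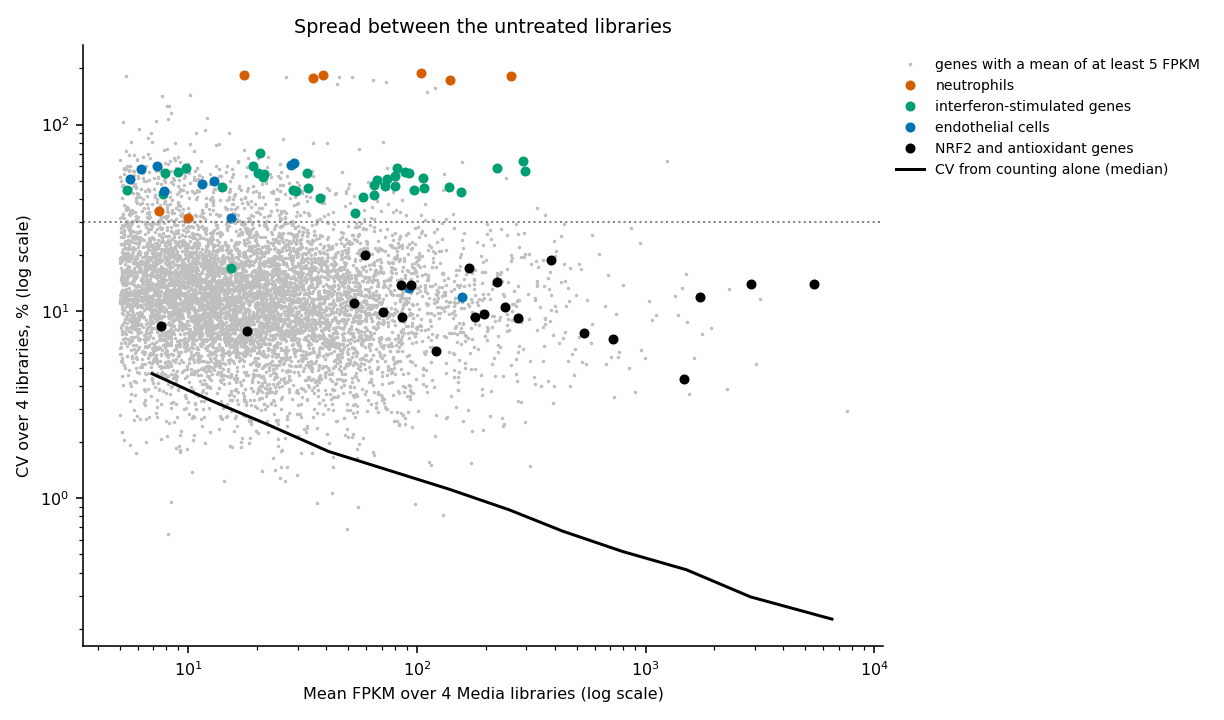
CV over the 4 Media libraries in percent (log axis) against mean FPKM (log axis) for the 7391 genes with a mean of at least 5 FPKM. Neutrophil genes (orange) and all interferon-stimulated genes (green) except Irf1 lie above the dotted line at 30%, NRF2 genes (black) lie below it, and the black line is the median CV that counting alone gives.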

How the data were processed

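Poly(A) RNA was sequenced from stranded libraries (100 ng of total RNA, paired reads of 100 bp), per the labels' protocols. Bowtie2 2.3.5.1 with Trimmomatic 0.39, FastQC 0.11.7, edgeR 3.30.3 and featureCounts of Subread 1.6.3 are listed with the build mm10, per the submitters' processing notes, which give no roles. The authors deposited FPKM values by gene symbol. The sources used here do not state the annotation, the use of strand or how the 14541 rows were kept, and 22 symbols had turned into dates.

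Whole reads were recovered from the FPKM steps of all 12 columns in 100% of rows, within 0.1 of a whole number. On simulated data 99.98% of 14541 rows came back exactly. The scaling factors in the deposited values were 1.02 to 1.11 in Media. Depth was 18343996 to 25910349 reads. Mean, SD, CV, rank and list medians were computed from the FPKM values in Python 3.11.15 with pandas 2.3.3, with a pseudocount of 1 only for log2 values. With 1 group no groups were compared, and Dixon's critical value was used only to find libraries far from the other 3. A simulated extra CV of 60% was found at the 30% threshold in 85.0% of 200 genes. Alternatives were the median, 2 rescalings, other filters and leaving out each library.

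Groups came from the sample titles. Gene lists and members were chosen with earlier results of these data known. Named genes were the 40 highest, the 20 largest and 10 smallest CVs, the 10 with most reads, and the 6 highest and 2 lowest of each list. Further list members were named for their role after their values were seen, and unnamed gene models were skipped. Motif cores were set after values were seen. Some results are not reported here. Positions came from GENCODE M21 (GRCm38), and sequences from RefSeq (GRCm38.p6), in which 10912 listed genes matched by symbol.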

Additional observations from a re-analysis of the deposited data

Results flagged for a closer look

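Each value below lay further from the other 3 libraries than Dixon's 95% critical value for 4 samples allows. Chance gives such a gap in about 5% of groups. It was found in 7 of 38 gene lists and in 30 of the 256 genes named in the text. The 256 genes include the 20 with the largest CV and others named after their values were seen, so their count cannot be read against that share. Nor can the count of lists, since lists share members and were chosen with earlier results of these data known. Of the 30 genes, 22 were high in Media 2.

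Summed over a list, neutrophil genes (2275 FPKM), heat shock genes (2885 FPKM) and immediate early genes (3188 FPKM) were high in Media 2. Genes of oligodendrocytes (21.6 FPKM) were high in Media 1, and those of alternative activation (1066 FPKM) were low there. Myeloid identity genes (7549.7 FPKM) were low in Media 3, and cytokines (1019.5 FPKM) were low in Media 4.

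The neutrophil genes high in Media 2 were S100a9 (962 FPKM), S100a8 (501 FPKM), Ngp (399.5 FPKM), Camp (147 FPKM), Lcn2 (128 FPKM), Ltf (65.8 FPKM), Mpo (11.4 FPKM) and Elane (11.1 FPKM). With them stood the stefin genes Stfa1 (259 FPKM), Stfa2 (191 FPKM), Stfa2l1 (168 FPKM) and Stfa3 (98.8 FPKM). Chil3 (68.4 FPKM), Anxa1 (31.8 FPKM), Ly6c2 (15.8 FPKM) and Plac8 (6.82 FPKM) were also high in Media 2. So were the heat shock genes Hspa1a (402 FPKM), Hspa1b (356 FPKM), Hsph1 (107 FPKM) and Bag3 (72.6 FPKM), and Arc (18.5 FPKM) and Thbs1 (479.7 FPKM). Nfkbia (87.1 FPKM) and Rel (27.1 FPKM) were low in Media 2.

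In Media 1, Tlr2 (122 FPKM) and Sall1 (20.3 FPKM) were high. Lamp1 (692 FPKM) and Gpx4 (6.64 FPKM) were low in Media 3. Ftl1 (7943 FPKM) and Arg1 (1.03 FPKM) were high in Media 4.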

How the results depend on the processing

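Scaling the listed genes of each library to 1 fixed sum, as in TPM, which multiplies FPKM by 3.03 to 3.13, left 2061 genes at 100 or more in place of 482 and 1235 genes with a CV of at least 30% in place of 582, since more genes pass a fixed threshold. Read shares with no division by gene length, on a TPM-like scale, put 2389 genes at 100 or more. A filter at 1 FPKM gave 1693 genes with a CV of at least 30%, and no filter gave 4747 genes and a median CV of 18.5% in place of 11.8%. On the log2 scale the median SD was 0.160 with a pseudocount of 1 and 0.170 with 0.1. Leaving out 1 library at a time gave 10719 to 10906 genes at 1 FPKM or more, 474 to 487 at 100 FPKM or more, a share of 26.9% to 27.2% for the 100 highest genes, a median CV of 10.3% to 12.1% and 464 to 679 genes with a CV of at least 30%. List medians above that of all genes numbered 28, and 27 or 28 under each alternative. Of 38 list medians, 2 moved by more than their SD over libraries without Media 1, 2 without Media 2, 2 without Media 3 and 0 without Media 4. Leaving out Media 2 took the neutrophil median from 9.91 to 2.91 FPKM. With upper quartile scaling none of the 38 moved that far. The median over the 4 libraries in place of the mean moved 3 of them, among these heat shock genes, to 40.0 FPKM. Setting members that were not listed to 0 moved 6, among these cytokines, to 5.17 FPKM. Depth limits genes of low level: 373 listed genes had 0 reads in at least 1 of the 4 libraries. Reads shared by gene copies, the strand setting and the row filter were not tested. No paired analysis was possible because 1 group is described and no groups are compared.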

Other observations

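Other receptors of phagocytic cells were at middle to high levels. Of 27 complement, Fc and scavenger receptor genes, all were listed, 9 had at least 100 FPKM and the median was 51.2 FPKM. Cd36, which takes up oxidised lipids, was at 578 ± 39.0 FPKM, and the receptors for the complement fragments C3a and C5a, C3ar1 and C5ar1, were at 327 ± 37.5 and 201 ± 15.8 FPKM. Mertk, which recognises dying cells, was at 10.7 ± 2.43 FPKM and its bridging ligand Gas6 at 69.2 ± 23.8 FPKM. Fcgr3 was at 91.3 ± 24.1 FPKM, against 15.2 ± 2.94 FPKM for the inhibitory Fcgr2b, and Fcgr1, which interferons raise, had 23.9, 6.32, 20.4 and 15.8 FPKM in Media 1 to 4, lowest in Media 2. The 77 listed nuclear genes of the respiratory chain had a median of 17.5 FPKM, and 38 of the 76 with at least 1 FPKM were highest in Media 4, against 20.3% of all genes at that level. The 10 listed genes of oligodendrocyte precursors had a median of 0.698 FPKM.

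The 8 treated libraries carry the same replicate numbers as the Media libraries, and libraries with the same number share a further label in the names of their columns. The summed neutrophil genes were at 2085 and 2395 FPKM in the other 2 libraries with the number 2 and at 58.2 to 263 FPKM in those with other numbers. Hspa1a was at 329 and 573 FPKM in the other 2 libraries with the number 2 and at 14.3 to 32.1 FPKM in the remaining treated ones. Ttr was at 188 and 186 FPKM in the other libraries with the number 1, at 508.5 and 985 FPKM in those with the number 2, at 2353 and 2628 FPKM in those with the number 3, and at 1427 and 1761 FPKM in those with the number 4. Within each treatment Rsad2 was lowest in the library with the number 2. These values were looked at after those of the Media libraries were seen.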
